A study of Homo sapiens with 12 samples.

Results

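The 10 genes described here encode 7 plasma proteins of the acute phase response and 3 members of the suppressor of cytokine signalling (SOCS) family. They are HP, HPX, ORM1, ORM2, SERPINA1, SERPINA3, LBP, SOCS1, SOCS2 and SOCS3, taken by symbol from the 47634 genes counted, and all 10 were matched. The cells were HepG2, a human hepatocellular carcinoma line that secretes many plasma proteins. Messenger RNA was counted from its 3′ end in 12 libraries, 3 for each of 4 groups. These were ATP7B KO cells given copper for 24 h (KO copper), ATP7B KO cells left untreated (KO untreated), wild type cells given copper for 24 h (WT copper) and wild type cells left untreated (WT untreated). ATP7B is the copper-transporting ATPase that is mutated in Wilson disease. The labels call the libraries of a group biological replicates. They give no copper dose, name a single KO line, and give neither the edit made in ATP7B nor whether the line is 1 clone.

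In the liver, cytokines of the IL6 family bind receptors that share the subunit IL6ST, and JAK kinases bound to it phosphorylate STAT3. STAT3, together with C/EBP, hepatocyte nuclear factors and NF-kappaB, raises transcription of positive acute phase genes, whose proteins are secreted into plasma. STAT proteins also raise SOCS genes, whose products bind receptors or JAK kinases and dampen the signal. SOCS3 acts on IL6ST, SOCS1 on JAK kinases below interferon receptors, and SOCS2 on the growth hormone receptor.

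Promoters of 4 members that the results turn on are shown because they differ in these control motifs. They are RefSeq sequences of GRCh38.p14, 250 bases before to 50 bases after an annotated gene start, and such sequences were at hand for 6 of the 10 members. HPX lies on the minus strand at chr11:6440938-6441237, ORM1 on the plus strand at chr9:114322848-114323147, SERPINA1 on the minus strand at chr14:94388553-94388852 (the second of 2 listed starts) and SOCS1 on the minus strand at chr16:11256155-11256454. Capitals mark motif matches.
HPX: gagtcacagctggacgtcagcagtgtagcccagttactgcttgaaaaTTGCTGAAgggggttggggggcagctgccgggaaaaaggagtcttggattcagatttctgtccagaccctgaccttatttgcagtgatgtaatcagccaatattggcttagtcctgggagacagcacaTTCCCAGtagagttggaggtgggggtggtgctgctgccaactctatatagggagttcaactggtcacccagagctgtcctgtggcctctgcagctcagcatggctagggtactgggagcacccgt
ORM1: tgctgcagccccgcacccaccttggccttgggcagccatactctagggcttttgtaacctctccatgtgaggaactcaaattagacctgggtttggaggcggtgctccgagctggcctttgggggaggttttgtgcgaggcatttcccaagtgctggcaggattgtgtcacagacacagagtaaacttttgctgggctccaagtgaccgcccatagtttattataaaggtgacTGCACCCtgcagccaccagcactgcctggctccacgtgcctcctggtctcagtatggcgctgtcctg
SERPINA1: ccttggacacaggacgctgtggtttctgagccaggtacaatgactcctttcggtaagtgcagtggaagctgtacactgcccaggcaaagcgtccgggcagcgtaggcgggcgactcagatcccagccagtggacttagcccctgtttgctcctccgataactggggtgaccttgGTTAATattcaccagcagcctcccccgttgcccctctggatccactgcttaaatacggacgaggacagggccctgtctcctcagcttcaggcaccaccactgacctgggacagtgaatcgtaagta
SOCS1: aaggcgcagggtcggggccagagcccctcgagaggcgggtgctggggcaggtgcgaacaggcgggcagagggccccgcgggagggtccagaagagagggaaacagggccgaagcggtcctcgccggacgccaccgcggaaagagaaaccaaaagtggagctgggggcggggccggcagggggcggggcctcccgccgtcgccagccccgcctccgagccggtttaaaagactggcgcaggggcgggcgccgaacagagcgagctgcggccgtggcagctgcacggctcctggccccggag
The motifs searched on both strands were the STAT site TTCNNNGAA, the IL6 type 2 element CTGGGAA, the C/EBP core TTGCNNAA, the HNF1 half-site GTTAAT, the heat shock pair GAANNTTC and the metal response core, TGCACNC or TGCGCNC. The letters of the IL6 type 2 element can lie within a STAT site, but no match below does so. HPX held the C/EBP core 203 bases before its start and the IL6 type 2 element, read on the opposite strand as TTCCCAG, 75 bases before it. ORM1 held the metal response core 17 bases before its start. SERPINA1 held the HNF1 half-site 76 bases before the start shown, and no match at its other start. SOCS1 held no match in this window. Among 35116 promoters of the same length, 10.5% held the C/EBP core, 10.8% the IL6 type 2 element, 29.6% the metal response core, 6.88% the HNF1 half-site, 7.66% the STAT site and 6.77% the heat shock pair. A match here describes letters and does not show binding.

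Libraries held 976658 to 3829151 counts, so that 3 counts, the limit a count of 0 allows, equal 3.07 CPM (counts per 1000000 counts of the library) in the shallowest and 0.783 CPM in the deepest. Intervals and limits given below cover counting error only. In bulk cultures, fewer cells of a kind and less RNA per cell cannot be told apart. The 3 shallowest libraries stood apart from the rest on the first principal component of log2 CPM, which held 44.3% of the variance: KO untreated 1 and 2 at 111.4 and 120.4, and WT copper 1 at 23.9, against values below 0 in the other 9. Results are therefore given with all 12 libraries and, as a choice made after the data were seen, with the other 9, where KO untreated is a single library assumed to vary like the other groups. ATP7B itself was counted in every library, at 3.92, 4.19 and 6.77 CPM in KO copper, 9.01, 2.05 and 11.6 CPM in KO untreated, 5.34, 3.92 and 3.87 CPM in WT copper and 12.7, 13.1 and 12.4 CPM in WT untreated. In copper its counts did not separate KO from wild type. Untreated, every KO library lay below every wild type one, as in 19.1% of all genes tested, and KO untreated 3 came close to them. ATP7B fell with copper in wild type (log2 fold change -1.51, adjusted p = 0.026 in edgeR's quasi-likelihood test). That call was lost without any WT untreated library or WT copper 2 or 3. A 3′ count outside an edited part does not check the labels. All 8 hepatocyte markers were counted in every group, with summed levels of 2518 to 2905 CPM in KO copper, 7459 to 7727 CPM in KO untreated, 7043 to 7390 CPM in WT copper and 13346 to 13719 CPM in WT untreated. SERPINA1 is 1 of those 8. Of 8 leukocyte or macrophage markers, CD3E and MARCO were at 0 in all 12 libraries and PTPRC reached no more than 0.281 CPM, while LYZ, the lysozyme gene, had 178 to 215 CPM in KO copper, 195 to 420 CPM in KO untreated, 264 to 832 CPM in WT copper and 1332 to 1454 CPM in WT untreated. That list summed to 186 to 225 CPM in KO copper, 209 to 428 CPM in KO untreated, 288 to 845 CPM in WT copper and 1349 to 1469 CPM in WT untreated. The 6 cholangiocyte markers summed to 971 to 1032 CPM in KO copper, 1396 to 1722 CPM in KO untreated, 1120 to 1164 CPM in WT copper and 850 to 911 CPM in WT untreated. KRT19, SPP1, EPCAM and SOX9 carried that sum and KRT7 and CFTR stayed under 3 CPM. KRT19 had 482 to 522 CPM in KO copper, 304 to 440 CPM in KO untreated, 363 to 432 CPM in WT copper and 151 to 177 CPM in WT untreated. The 8 fibroblast or stellate markers summed to 27.6 to 80.8 CPM in KO copper, 55.4 to 110.8 CPM in KO untreated, 37.2 to 56.6 CPM in WT copper and 53.1 to 60.6 CPM in WT untreated. The 5 endothelial markers matched summed to at most 10.2 CPM in any library, and KDR, TEK and STAB2 were at 0 in all. KRT19 was thus higher in every copper library than in any untreated library of its line, and LYZ lower in every WT copper library than in any WT untreated one. The cholangiocyte sum, however, was lower in every KO copper library than in any KO untreated one. Of the 4 cholangiocyte markers tested, 1 rose and 3 fell with copper in KO, and 2 rose and 1 fell in wild type. Over all genes tested, 33.7% were called in KO and 14.9% in wild type, at an adjusted p under 0.05 in edgeR's quasi-likelihood test. Mitochondrially encoded genes took 2.97% to 3.80% of counts in WT untreated and 5.82% to 9.46% in the other 9 libraries. The part of the marker genes and of these genes in the results was not tested.

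The 10 genes together took 0.0219% to 0.0963% of a library's counts, lowest in KO copper 2 and highest in KO untreated 2. SERPINA1 supplied 74.3% to 91.8% of those counts. The filter on low counts kept 7 of the 10 and left out SERPINA3, LBP and SOCS3, which are described by their counts alone. HP and SOCS1 reached the level of that filter only in untreated libraries, and SOCS2 only in copper libraries. Their tests with copper thus depend on the groups in which they were high. HPX reached that level only in KO libraries, so its tests between the lines depend on the line in which it was high. Among the 7, with all 12 libraries, copper lowered 4 and raised 1 in KO cells, and lowered 2 and raised none in wild type cells, at an adjusted p under 0.05 in edgeR's quasi-likelihood test. Over all 11051 genes tested, 33.7% were called with copper in KO (18.5% lower, 15.2% higher) and 14.9% in wild type (6.68% lower, 8.23% higher). In 25.1% of those genes every KO copper library lay below every KO untreated one, and in 19.1% above. In wild type these shares were 27.1% and 21.3%, so groups without overlap were common. The median log2 fold change of the 7 was -1.02 in KO and -1.19 in wild type, beside 0.01 and -0.03 over all genes tested. With the 9 libraries, 6 members fell and 1 rose in KO, and 5 fell and 1 rose in wild type, at a background of 39.6% and 40% of 11955 genes. Leaving out KO copper 3 lowered the count called in KO to 3 and leaving out KO untreated 3 raised the count in wild type to 6. Leaving out any WT untreated library or WT copper 2 lowered the count in wild type to 1.

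**Figure D1:**
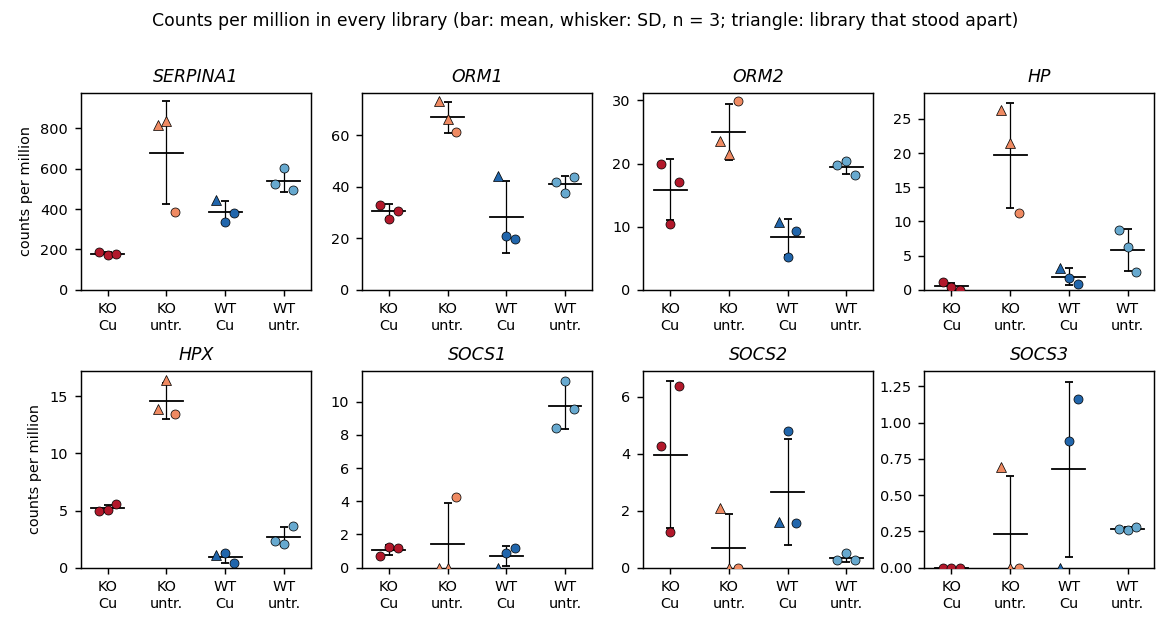
CPM of 8 members in each library, with KO copper, KO untreated, WT copper and WT untreated left to right; bars are means, whiskers SD (n = 3), and triangles the 3 libraries that stood apart. HP, HPX, ORM1, ORM2 and SERPINA1 were lower in every KO copper library than in any KO untreated one, as were 25.1% of all genes tested. SOCS1 was highest in the WT untreated libraries (8.44 to 11.2 CPM).

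Both carriers of hemoglobin and heme were lower with copper in KO cells. HP encodes haptoglobin, which binds free hemoglobin, and HPX encodes hemopexin, which binds free heme. HP had 1.07, 0.419 and 0 CPM in KO copper, against 26.3, 21.5 and 11.3 CPM in KO untreated. Every KO copper library lay below every KO untreated one, and the counts were 4 in KO copper and 96 in KO untreated in all. HP fell (log2 fold change -4.98 ± 0.77 SE, adjusted p = 0.00069), a pooled ratio of 0.0308 with a 95% counting interval of 0.00822 to 0.0815. In wild type cells HP had 3.20, 1.74 and 0.775 CPM in WT copper, against 8.70, 6.27 and 2.53 CPM in WT untreated. These groups overlapped, and the change did not pass the test (-1.64 ± 0.68 SE, adjusted p = 0.12), although it did with the 9 libraries (-2.16, adjusted p = 0.0069).

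HPX had 4.99, 5.02 and 5.57 CPM in KO copper, against 13.9, 16.4 and 13.4 CPM in KO untreated. The groups did not overlap, at 14, 12 and 14 counts in KO copper and 20, 16 and 44 in KO untreated. The coefficient of variation was 6.33% in KO copper and 10.97% in KO untreated. Both are below the counting error of so few counts, so they do not measure how closely replicates agree. HPX fell (log2 fold change -1.34 ± 0.33 SE, adjusted p = 0.0089), and it fell with the 9 libraries too (-1.19, adjusted p = 0.018). In wild type cells HPX was scarce, at 1.07, 1.31 and 0.387 CPM in WT copper, against 2.37, 2.09 and 3.65 CPM in WT untreated. The groups did not overlap, with 6 counts in WT copper and 30 in WT untreated, and the change lay just outside the threshold (-1.52 ± 0.48 SE, adjusted p = 0.051).

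The carriers also differed between the lines. HPX was higher in KO cells under both treatments, by a log2 fold change of 2.45 ± 0.46 SE in copper (adjusted p = 0.0048) and 2.27 ± 0.34 SE untreated (adjusted p = 0.00092). Both calls held in each of the 21 alternative settings tried. HPX passed the filter on low counts only through KO libraries, the high side of both calls. Its order over the groups was KO untreated, KO copper, WT untreated and WT copper, with no overlap between neighbours. HP was higher in KO untreated than in WT untreated (1.59 ± 0.54 SE, adjusted p = 0.041), but not with the 9 libraries (0.74, adjusted p = 0.23). That call was also lost with only those 2 groups in the fit and without any WT untreated library, WT copper 2, KO untreated 1 or 2, or KO copper 2, with an adjusted p up to 0.15. In copper HP did not pass the test between the lines, at 4 counts in KO copper and 12 in WT copper (-1.75 ± 1.0 SE, adjusted p = 0.27).

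ORM1 and ORM2 encode the orosomucoids, alpha-1-acid glycoproteins that bind drugs and lipids in plasma. The 2 copies are near-identical: 52.7% of the 75-base stretches in the last 300 bases of each occur in the other, so reads can be shared and single values are uncertain. ORM1 had 33.1, 27.6 and 30.7 CPM in KO copper, against 73.4, 66.6 and 61.3 CPM in KO untreated. All KO copper libraries lay below all KO untreated ones. ORM1 fell (log2 fold change -1.02 ± 0.29 SE, adjusted p = 0.018), and with the 9 libraries too (-0.83, adjusted p = 0.00042), but not without KO untreated 1, KO copper 2 or KO copper 3 (adjusted p up to 0.069). In wild type cells it had 44.3, 20.9 and 19.8 CPM in WT copper, against 41.9, 37.6 and 43.8 CPM in WT untreated. WT copper 1, a library that stood apart, was above every WT untreated library while the other WT copper libraries were below them. The change was -0.52 ± 0.29 SE (adjusted p = 0.26), against -0.95 with the 9 libraries (adjusted p = 4.08e-05) and -1.01 without WT copper 1 alone (adjusted p = 0.014).

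ORM2 had 10.7, 5.23 and 9.30 CPM in WT copper, against 19.8, 20.4 and 18.2 CPM in WT untreated. The groups did not overlap and ORM2 fell in wild type cells, by a log2 fold change of -1.19 ± 0.31 SE at an adjusted p of 0.024. It no longer passed when any WT untreated library or WT copper 2 was left out (adjusted p up to 0.10), but did with the 9 libraries (-1.34, adjusted p = 0.00024). With the counts of ORM1 and ORM2 summed, the change in wild type was -0.70 ± 0.27 SE and did not pass the test (adjusted p = 0.107), while the sum fell in KO (-0.87 ± 0.27 SE, adjusted p = 0.027). In KO cells ORM2 had 19.9, 10.5 and 17.1 CPM in KO copper, against 23.6, 21.5 and 29.9 CPM in KO untreated, with no overlap (-0.54 ± 0.30 SE, adjusted p = 0.17; with the 9 libraries -0.72, adjusted p = 0.029). The ratio of ORM1 to ORM2 counts ran from 1.66 to 4.15 over the libraries, highest in WT copper 1 and lowest in KO copper 1. Between the lines, ORM1 and ORM2 did not pass the test under either treatment. With the 9 libraries both were higher in KO copper than in WT copper (0.50, adjusted p = 0.035, and 1.03, adjusted p = 0.0067).

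SERPINA1 encodes alpha-1-antitrypsin, the main plasma inhibitor of neutrophil elastase, and was the most abundant member in every library. It had 189, 173 and 176 CPM in KO copper, against 817, 838 and 384 CPM in KO untreated. KO copper lay below every KO untreated library, and KO untreated 1 and 2, which stood apart, were well above KO untreated 3. SERPINA1 fell in KO cells (log2 fold change -1.82 ± 0.30 SE, adjusted p = 0.00091). The size of the change rested on those libraries: it was -0.92 with the 9 (adjusted p = 9.62e-08) and -2.18 without KO untreated 3. In wild type cells SERPINA1 had 444, 336 and 382 CPM in WT copper, against 526, 604 and 493 CPM in WT untreated. The groups did not overlap, yet the change did not pass the test (-0.45 ± 0.29 SE, adjusted p = 0.31), while it did with the 9 libraries (-0.53, adjusted p = 3.59e-05).

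In copper, SERPINA1 was lower in KO than in wild type cells, by a log2 fold change of -1.15 ± 0.29 SE at an adjusted p of 0.023. It did not pass without WT copper 1 or any KO copper library (adjusted p up to 0.086), and did with the 9 libraries (-1.09, adjusted p = 3.9e-11). Untreated, KO stood at 0.22 ± 0.30 SE above wild type (adjusted p = 0.57), and the direction turned with the 9 libraries, where KO was lower (-0.69, adjusted p = 3.5e-05). By range, KO untreated overlapped WT untreated, WT copper came below both except for its overlap with KO untreated 3, and KO copper was below every other library.

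SERPINA3 encodes alpha-1-antichymotrypsin, which inhibits cathepsin G, and LBP encodes the protein that hands bacterial lipopolysaccharide to CD14. SERPINA3 had 1 count, in KO copper 2, and 0 in the other 11 libraries. LBP had 0 counts in all 12, which allows up to 0.783 CPM in the deepest library and 3.07 CPM in the shallowest. The SERPINA3 count sets no limit on its RNA. In GENCODE v29 another gene on the same strand, AL049839.2, has exons over the 3′ end of SERPINA3, and 66.8% of the 75-base stretches in the last 300 bases of SERPINA3 also belong to it. The counting of reads that fall in both was not given in the sources used here. AL049839.2, looked up after the SERPINA3 counts were seen, had 0.712, 1.68 and 1.99 CPM in KO copper, 40.9, 20.5 and 6.41 CPM in KO untreated, 9.61, 6.54 and 5.04 CPM in WT copper and 5.80, 4.96 and 5.90 CPM in WT untreated. It fell with copper in KO cells (log2 fold change -3.79 ± 0.69 SE, adjusted p = 0.0017; with the 9 libraries -1.96, adjusted p = 0.0049), with KO copper below KO untreated throughout.

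SOCS1 had 0, 0.871 and 1.16 CPM in WT copper, against 8.44, 11.2 and 9.55 CPM in WT untreated. No WT copper library came near the WT untreated ones, with 5 counts in WT copper and 109 in WT untreated. SOCS1 fell in wild type cells by a log2 fold change of -3.63 ± 0.79 SE at an adjusted p of 0.0099, a pooled ratio of 0.0760 with a 95% counting interval of 0.0242 to 0.183, and the call held in all 21 alternative settings. SOCS1 passed the filter on low counts only through WT untreated, the group on the high side of both of its calls with all 12 libraries. In KO cells it had 0.712, 1.26 and 1.19 CPM in KO copper, against 0, 0 and 4.27 CPM in KO untreated. The 14 counts of KO untreated all came from KO untreated 3, while the floor of 3 counts in KO untreated 1 and 2 equals 2.08 and 3.07 CPM. Copper in KO gave -0.84 ± 0.89 SE (adjusted p = 0.48), and -1.82 with the 9 libraries (adjusted p = 0.020). Untreated, SOCS1 was lower in KO than in wild type cells (-2.33 ± 0.68 SE, adjusted p = 0.022), and with the 9 libraries too (-1.38, adjusted p = 0.013), but the call ended without any WT untreated library and with only those 2 groups in the fit (adjusted p up to 0.085). The WT untreated libraries thus stood above all 9 others in SOCS1, and the 3 other groups overlapped one another.

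SOCS2 went the other way. It had 4.27, 1.26 and 6.37 CPM in KO copper, against 2.08, 0 and 0 CPM in KO untreated, and the groups overlapped. It passed the filter on low counts only through WT copper 2 and KO copper 1 and 3, so its test depends on libraries where it was high. SOCS2 rose in KO cells (log2 fold change 2.86 ± 1.02 SE, adjusted p = 0.047), with 31 counts in KO copper and 3 in KO untreated, a pooled ratio of 7.64 with a counting interval of 2.38 to 39.0. That call held in 7 of 20 alternatives and was lost, among others, without KO untreated 2 or 3, KO copper 1 or 3 or any wild type library (adjusted p up to 0.15). Among the 9 libraries the KO untreated count was 0, and the 95% counting interval of the ratio of KO copper to KO untreated had a lower limit of 3.36. In wild type cells SOCS2 had 1.60, 4.79 and 1.55 CPM in WT copper, against 0.264, 0.522 and 0.281 CPM in WT untreated. These groups did not overlap, with 18 counts in WT copper and 4 in WT untreated (2.76 ± 0.97 SE, adjusted p = 0.077; with the 9 libraries 3.04, adjusted p = 0.0045).

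SOCS3 had 0 counts in KO copper, 1 in KO untreated, 5 in WT copper and 3 in WT untreated. Its highest level was 1.16 CPM, in WT copper 3, and it was not tested. At this depth no difference between the groups was shown. In copper the counting interval of the pooled ratio of KO to wild type ended at 0.956. That interval leaves out the spread between libraries, where WT copper had 0, 2 and 3 counts, so it does not establish a difference. HP, SOCS1 and SOCS2 each overlap a gene on the opposite strand (TXNL4B, RMI2 and SOCS2-AS1). The strand setting was not given in the sources used here, so reads of overlapping pairs may be mixed. None of these genes has an exon in GENCODE v29 over the last 300 bases of the members' coding transcripts.

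**Figure D2:**
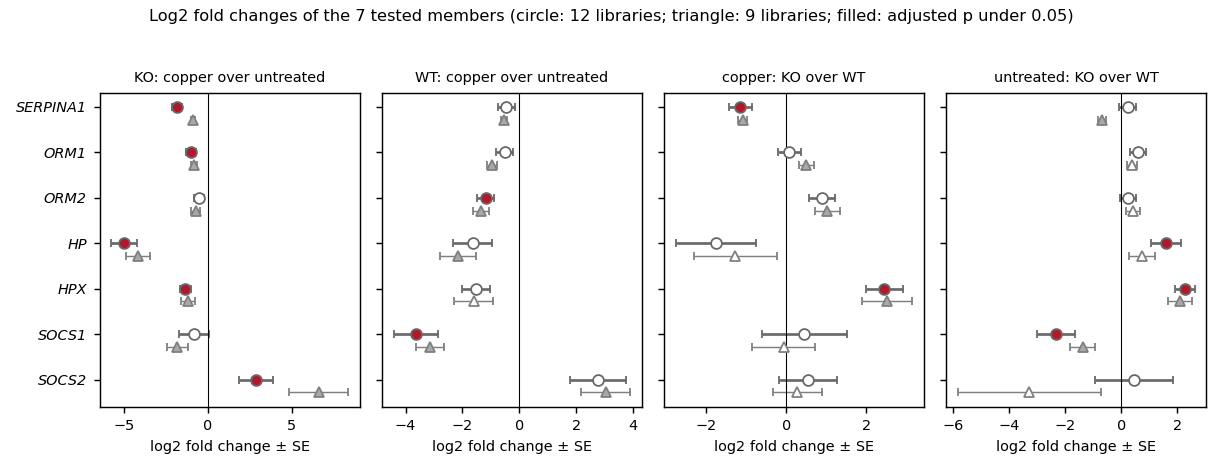
Log2 fold change ± SE of the 7 tested members in 4 comparisons, from all 12 libraries (circles) and from the 9 left after removing those that stood apart (triangles); filled symbols have an adjusted p under 0.05. SERPINA1 in KO over WT untreated changes side (0.22 and -0.69), while HPX stays at 2.27 and 2.10. The SOCS2 triangles for KO rest on 0 counts in KO untreated, so they are fitted values and no bounds.

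Between the lines, KO against WT raised 2 members and lowered 1 untreated, and raised 1 and lowered 1 in copper. The background was 31.9% of genes untreated (17.9% higher, 14% lower) and 13.8% in copper (5.77% higher, 8.03% lower). Untreated, every KO library lay above every wild type one in 25.7% of genes, and below in 19.1%. In copper these shares were 26.4% and 20%. Over the 9 libraries the counts were 1 raised and 2 lowered untreated at a background of 34.6%, and 3 raised and 1 lowered in copper at 37.9%. The untreated count of 3 went to 1 without any WT untreated library and to 5 without KO untreated 3. The count of 2 in copper went to 1 without WT copper 1 or any KO copper library. No member passed the interaction test, which asks whether the copper effect differed between the lines (0 of 7, against 4.93% of all genes tested, and 0 of 7 against 8.78% with the 9 libraries). At an unadjusted p under 0.05 there were 2: SERPINA1 (-1.37 ± 0.41 SE, unadjusted p = 0.0056, adjusted p = 0.062) and HP (-3.34 ± 1.14 SE, unadjusted p = 0.012, adjusted p = 0.084). DESeq2 called both and limma voom none of the 7. Over the 9 libraries, SERPINA1 was -0.39 (adjusted p = 0.12) and HP -2.0 (adjusted p = 0.31).

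Across the 12 libraries, HP followed SERPINA1 with a Pearson r of 0.851 and ORM1 with 0.833, while HPX and SERPINA1 had an r of 0.107. SOCS1 had an r between -0.438 and 0.275 with every other tested member, and SOCS2 was negative with all of the other 6, from -0.279 to -0.635. These are descriptions over libraries that share 4 treatments, and the 3 libraries that stood apart weigh on them. Among 9660 or 9661 genes with a mean of at least 5 CPM, the gene whose log2 CPM was most like HP was GPT (r = 0.967), most like HPX was TMEM59L (0.966), and most like ORM1 was CCNB1 (0.971). The corresponding genes were SULT1A1 for ORM2 (0.927), TPRN for SERPINA1 (0.988), PTTG1 for SOCS1 (0.979) and ACTR6 for SOCS2 (0.867).

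Other positive acute phase genes were lowered by copper more often than not. The counts of this list and of those below stand beside the shares of all genes called with copper. These were 33.7% in KO (18.5% lower, 15.2% higher) and 14.9% in wild type (6.68% lower, 8.23% higher). Of 25 listed, 15 were tested, and with copper 11 fell and none rose in KO cells, against 8 fallen and none risen in wild type cells. With the 9 libraries 15 of 17 fell in KO and 12 of 17 in wild type; leaving out KO copper 1 lowered the KO count to 7. The fibrinogen chain gene FGA had 123, 130 and 140 CPM in KO copper, against 862, 756 and 1213 CPM in KO untreated, and it fell in KO (-2.72 ± 0.21 SE, adjusted p = 7.1e-06). In wild type cells FGA had 416, 369 and 351 CPM in WT copper, against 1088, 1140 and 1122 CPM in WT untreated, and fell (-1.53 ± 0.20 SE, adjusted p = 0.00052). FGG, another chain, fell in KO (-3.02) and wild type (-1.49). CP, which encodes the copper-binding ferroxidase ceruloplasmin, had 8.55, 10.05 and 12.3 CPM in KO copper, against 105, 86.0 and 43.3 CPM in KO untreated. CP fell in KO (-2.80 ± 0.32 SE, adjusted p = 0.00011) and in wild type (-1.36 ± 0.29 SE, adjusted p = 0.0085). SAA4 is a constitutive serum amyloid A gene, yet it is among the genes counted as fallen above. SAA4 fell in both lines (-1.10 in KO, -1.12 in wild type, where the call ended without WT untreated 3). It was higher in KO than in wild type cells in copper (1.13, adjusted p = 0.011, lost without KO copper 1) and untreated (1.10, adjusted p = 0.0052), as HPX was. LRG1, a leucine-rich plasma glycoprotein gene, had 21.7, 26.4 and 23.9 CPM in KO copper, against 90.1, 85.0 and 49.4 CPM in KO untreated. It fell in KO (-1.52 ± 0.26 SE, adjusted p = 0.0012), by -0.87 with the 9 libraries (adjusted p = 0.00034), and was at 0.15 ± 0.24 SE in wild type (adjusted p = 0.72). CRP, APCS and CFB had 0 counts in all 12 libraries.

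Between the lines, 1 of the 15 was higher and 8 were lower in KO than in wild type cells in copper, and 2 were higher and 4 lower untreated. With KO copper 1 left out the count lower in copper was 5, and with KO untreated 3 left out the count lower untreated was 7. CP was lower in KO cells in copper (-3.20 ± 0.32 SE, adjusted p = 0.00012) and untreated (-1.76 ± 0.29 SE, adjusted p = 0.0016; -2.68 with the 9 libraries).

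The negative acute phase genes, which fall in the liver's response to inflammation, fell as well. Of 9 tested, 6 fell and none rose in KO, and 8 fell and none rose in wild type; with the 9 libraries the counts were 9 and 8, and without WT copper 2 the wild type count was 5. ALB, the albumin gene, had 426, 405 and 401 CPM in KO copper, against 935, 888 and 1177 CPM in KO untreated, and it fell (-1.16, adjusted p = 0.0011). TF, which encodes transferrin, fell in KO (-1.64 ± 0.20 SE) and in wild type (-0.94). SERPINA6, a neighbour of SERPINA1 that encodes the corticosteroid carrier, fell in KO (-2.63 ± 0.26 SE, adjusted p = 3.76e-05) and in wild type (-1.86 ± 0.25 SE, adjusted p = 0.00059). Positive and negative acute phase genes thus moved the same way with copper, with list medians of -1.10 and -1.16 in KO and -1.001 and -0.945 in wild type.

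**Figure D3:**
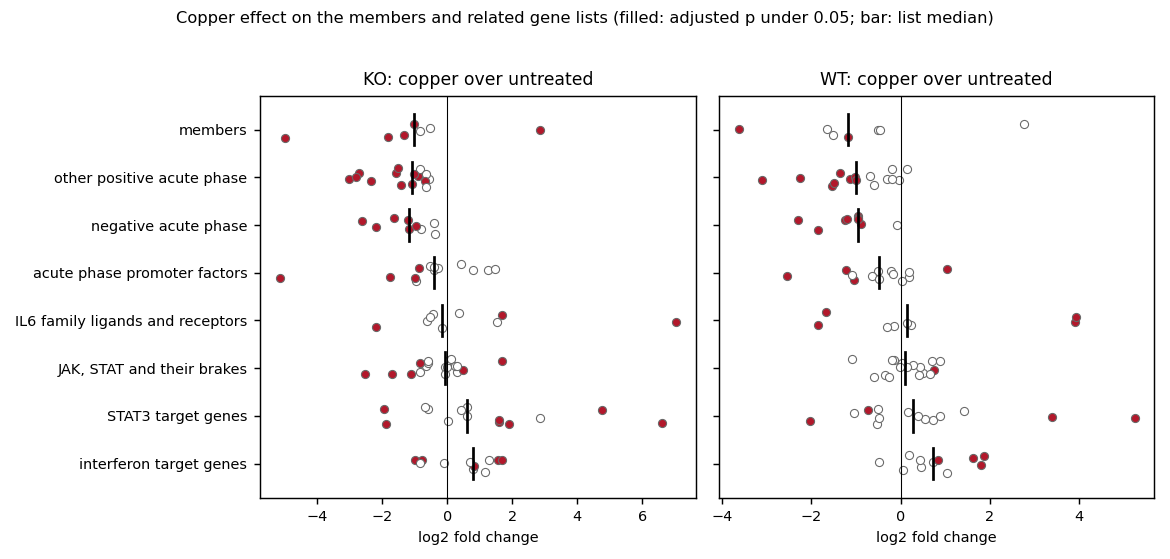
Log2 fold change with copper of each tested gene in 8 lists, in KO (left) and wild type cells (right); filled points have an adjusted p under 0.05 and black bars are list medians. The 3 acute phase lists have medians near -1 in both lines, while those of the STAT3 and interferon target lists are above 0.

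Among neighbours of SERPINA1 in the serpin cluster, and paralogs, 5 of 9 were tested. Of these 3 fell with copper in KO and 3 in wild type, and with the 9 libraries all 5 fell in both. The count in wild type was also 5 without KO untreated 3. SERPINA11 had 14.6, 13.0 and 15.1 CPM in KO copper, against 125, 88.1 and 103 CPM in KO untreated (-2.77 ± 0.22 SE, adjusted p = 8.09e-06), and it fell in wild type (-1.34 ± 0.20 SE, adjusted p = 0.0012). SERPINA4, which encodes kallistatin, fell in KO (-3.75 ± 0.41 SE, adjusted p = 7.05e-05). HPR, the haptoglobin paralog, shares 9.65% of the stretches at the HP 3′ end. HPR was at 18.4 CPM in KO untreated 2 and under 1 CPM elsewhere, and SERPINA2 was at 0 in all libraries.

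Upstream of the members, 9 genes of the IL6 family and its receptors were tested, of which 2 rose and 1 fell in KO and 2 rose and 2 fell in wild type (with the 9 libraries, 4 rose and 2 fell in KO, and 3 rose and 2 fell in wild type). The 9 genes include IL22RA1 and IL10RB, receptor chains for IL22 that lie outside the IL6 family. IL11, a cytokine that signals through IL6ST, had 202, 156 and 184 CPM in KO copper, against 0.693, 0 and 2.44 CPM in KO untreated. It had 37.9, 71.0 and 70.5 CPM in WT copper, against 4.22, 4.18 and 3.65 CPM in WT untreated. No library of one treatment came near the other, and IL11 rose in KO (7.04 ± 0.46 SE, adjusted p = 2.22e-06) and in wild type (3.90 ± 0.36 SE, adjusted p = 5.53e-05). CLCF1, another ligand of the family, rose in wild type (3.93 ± 0.88 SE, adjusted p = 0.011), with 23 counts in WT copper and 2 in WT untreated, a ratio of 19.1 with a counting interval of 4.71 to 167. Its call ended without WT untreated 1 or 2. IL22RA1 fell in KO (-2.18 ± 0.40 SE, adjusted p = 0.0017) and wild type (-1.86 ± 0.38 SE, adjusted p = 0.0072), and no gene of the IL6 family itself was called lower in KO. LIFR, a receptor chain of that family, fell in wild type (-1.68, adjusted p = 0.015). The LIFR call ended without any WT untreated library or WT copper 1 or 2. IL6 had 0 counts in all libraries, and IL6R and IL6ST did not pass the test in any of the 4 comparisons between groups. The genes risen in KO numbered 1 to 3 with single libraries left out, and 1 without any library but WT copper 1 and 3 and KO untreated 2 and 3. In KO the fallen numbered 2 without KO untreated 3. In wild type the risen numbered 1 without WT untreated 1 or 2, and the fallen 1 without any WT untreated library or WT copper 1 or 2. Among 7 tested receptors of other signals that SOCS proteins act on, 1 rose and 1 fell with copper in KO and none changed in wild type (with the 9 libraries, 1 rose and 2 fell of 8 in KO, and 1 rose and 3 fell in wild type). Without KO untreated 3, 3 rose in KO, and 1 rose and 2 fell in wild type. PRLR, the prolactin receptor, had 0.356, 1.26 and 2.39 CPM in KO copper, against 27.0, 14.3 and 7.63 CPM in KO untreated, and fell (-3.45 ± 0.68 SE, adjusted p = 0.0028; -2.34 with the 9 libraries). IL4R, an interleukin 4 receptor chain, rose in KO (2.21 ± 0.57 SE, adjusted p = 0.012; 1.07 with the 9 libraries), a call lost with only those 2 groups in the fit. GHR, the growth hormone receptor, had 1 count in KO copper, 1 in KO untreated and 0 in the wild type groups.

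Of 18 tested JAK, STAT and regulatory phosphatase or PIAS genes, 2 rose and 4 fell with copper in KO, and 1 rose and none fell in wild type. The 6 called in KO are a share equal to the background of 33.7%. With the 9 libraries the counts were 3 and 2 in KO and 5 and 1 in wild type. With single libraries left out, 0 to 2 rose in KO, fewer than 2 without any library but WT copper 1 and KO untreated 3, and 3 to 7 fell, the most without KO untreated 3. In wild type 0 to 4 rose, a count moved by WT untreated 2, WT copper 2 and each KO untreated library, and 1 fell without KO untreated 3. STAT3 had 338, 324 and 293 CPM in KO copper, 387, 305 and 407 CPM in KO untreated, 374, 216 and 309 CPM in WT copper and 205, 208 and 151 CPM in WT untreated. The WT untreated libraries were the lowest, and STAT3 was higher in KO untreated than in WT untreated (0.84 ± 0.24 SE, adjusted p = 0.020), a call lost without WT untreated 1 or 3 or KO untreated 1 and with only those 2 groups in the fit. PTPN6, a phosphatase that acts on JAK kinases, fell with copper in KO (-2.54 ± 0.54 SE, adjusted p = 0.0042), by -1.69 with the 9 libraries (adjusted p = 0.030), and STAT6 fell there too (-0.84 ± 0.18 SE, adjusted p = 0.0043). JAK2 rose in KO (1.68 ± 0.47 SE, adjusted p = 0.016), but not without KO untreated 1. Of the other SOCS genes, SOCS6 had 15.3, 16.7 and 23.5 CPM in KO copper, against 105, 122 and 32.7 CPM in KO untreated. SOCS6 fell in KO (-2.11 ± 0.41 SE, adjusted p = 0.0025), by -0.65 with the 9 libraries (adjusted p = 0.025), and SOCS4 and SOCS5 did not pass the test in either line.

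**Figure D4:**
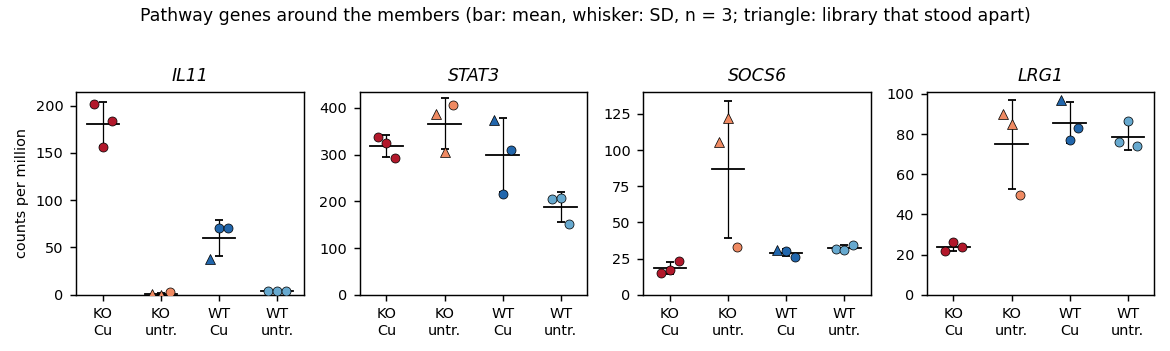
CPM of IL11, STAT3, SOCS6 and LRG1 in each library, with KO copper, KO untreated, WT copper and WT untreated left to right; bars are means, whiskers SD (n = 3), and triangles the libraries that stood apart. IL11 is at 156 to 202 CPM in KO copper and 37.9 to 71.0 CPM in WT copper, and no higher than 4.22 CPM in untreated libraries.

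Known STAT3 targets were mixed. Of 14 tested, 5 rose and 2 fell with copper in KO, and 2 rose and 2 fell in wild type; with the 9 libraries 6 rose and 2 fell in KO, and 6 rose and 3 fell in wild type. Single libraries left out gave 3 to 7 risen and 1 to 4 fallen in KO, and 2 to 7 risen and 0 to 2 fallen in wild type, the 7 risen in wild type without KO untreated 3. The risen count in KO moved by over 1.5 times without any library but WT copper 1 and 3 and KO untreated 3, and the fallen count there without KO untreated 2 or 3 or any KO copper library. The fallen count in wild type moved without any library but WT copper 3 and KO untreated 1 and 3. JUNB, an immediate early transcription factor, had 155, 159 and 122 CPM in KO copper, against 2.08, 3.07 and 10.1 CPM in KO untreated, and rose (4.75 ± 0.62 SE, adjusted p = 0.00026). It rose in wild type as well (3.40 ± 0.55 SE, adjusted p = 0.0020), and so did FOS, another immediate early factor (6.59 in KO, 5.25 in wild type). Of 11 tested interferon targets, 3 rose and 2 fell in KO and 4 rose and none fell in wild type. GBP1, an interferon-induced GTPase, rose in KO (1.68 ± 0.41 SE, adjusted p = 0.0092). The count of 4 in wild type went as low as 0 when any WT untreated, WT copper or KO copper library was left out in turn, and was 5 of 13 with the 9 libraries. In KO the 3 risen became 5 without KO untreated 3, and the 2 fallen became 1 without any library but WT copper 1 and 2 and KO untreated 3. Over the 9 libraries, 3 rose and 1 fell in KO.

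Of 13 tested transcription factors that act on acute phase promoters, 4 fell and none rose in KO, and 3 fell and 1 rose in wild type; with the 9 libraries 7 fell and 1 rose in KO, and 5 fell and 2 rose in wild type. Up to 4 rose in KO, a count moved by WT copper 1 and KO untreated 3, and in wild type the fallen went as low as 1 without any WT untreated library or WT copper 1 or 2. The 1 risen in wild type was lost without those libraries or any KO copper library. FOXA2, a pioneer factor of the liver, had 81.2, 74.5 and 78.4 CPM in KO copper, against 174, 152 and 137 CPM in KO untreated, and it fell in KO (-0.87 ± 0.20 SE, adjusted p = 0.0058). It fell in wild type too (-1.04 ± 0.20 SE, adjusted p = 0.0046). FOXA1 fell in KO (-1.77 ± 0.26 SE, adjusted p = 0.00045), as did ONECUT1 (-5.15 ± 0.80 SE, adjusted p = 0.00069), by -2.73 with the 9 libraries. HNF4A and CEBPA fell in wild type (-1.23, adjusted p = 0.026, and -2.55, adjusted p = 0.031), and both calls ended without any WT untreated library or WT copper 1 or 2. CEBPD, a C/EBP factor that cytokines raise, was lower in KO than in wild type cells untreated (-2.78, adjusted p = 0.0033) and in copper (-1.85, adjusted p = 0.029), where the call was lost without WT untreated 1 or 2, WT copper 2 or 3 or any KO copper library (adjusted p up to 0.0956).

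Of the 7 tested partners of the member proteins, 3 rose and 1 fell with copper in KO and 2 rose and none fell in wild type (with the 9 libraries, 5 rose and 1 fell in KO, and 3 rose and 1 fell in wild type). The risen numbered 1 to 5 in KO, a count moved by KO untreated 3 and KO copper 3, and 1 to 3 in wild type, a count moved by each WT untreated library and WT copper 1 and 2. HMOX1, heme oxygenase, which breaks down the heme that HPX carries, had 6306, 6450 and 6550 CPM in KO copper, against 1370, 1173 and 617 CPM in KO untreated, and rose (2.71 ± 0.33 SE, adjusted p = 0.00015). It rose in wild type (4.20 ± 0.35 SE, adjusted p = 2.72e-05). LRP1, a receptor that takes up the heme and hemopexin complex and serpin and protease complexes, fell in KO (-2.15 ± 0.34 SE, adjusted p = 0.00082). CD163, the haptoglobin receptor of macrophages, had 1 count in all. Of 20 genes of the secretory pathway, 3 rose and 2 fell with copper in KO, and none rose and 4 fell in wild type. Over all genes tested, 33.7% were called in KO and 14.9% in wild type. Over the 9 libraries, 5 rose and 3 fell in KO, and 4 rose and 9 fell in wild type. SEC11C, a signal peptidase subunit, fell in wild type (-1.40 ± 0.25 SE, adjusted p = 0.0036), and SAR1A, a GTPase of vesicles leaving the endoplasmic reticulum, rose in KO (0.82 ± 0.16 SE, adjusted p = 0.0026). The KO count of 3 risen genes went to 13 without KO untreated 3, and the 2 fallen went as low as 0 without any library but WT copper 1 and 3 and KO untreated 3. In wild type the 4 fallen went as low as 1 without any WT untreated or KO copper library or WT copper 1 or 2, and 1 rose without KO untreated 3.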

How the data were processed

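Libraries were made from 100 ng of total RNA with a 3′ mRNA kit (QuantSeq) and read single-end for 75 bp, per the labels' protocols. Per the submitters' processing notes, the authors used STAR 2.3.0, HTSeq and the hg19 build; the annotation release, counting mode, strand setting and any filter were not given in the sources used here. What the authors deposited is a raw read count for each gene, without normalization. Symbols came from gene name tables and GENCODE v29, which named 45776 of 47634 IDs holding 99.5% of counts. No row lacked a gene ID. Without molecular identifiers, amplified copies cannot be told from molecules. CPM is the count per 1000000 counts of the library.

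The test was edgeR's quasi-likelihood F test (version 4.0.16, R 4.3.3, robust) on 4 group means over all 12 libraries, with TMM scaling and the 11051 genes that filterByExpr kept. The biological coefficient of variation was 29.1%. P-values were adjusted by Benjamini-Hochberg over all genes tested and called at 0.05, and p-values measure the spread between libraries called biological replicates. SE is the log2 fold change over the square root of F. The alternatives were other size factors, no filter, DESeq2 1.42.0, limma voom 3.58.1, only the 2 groups compared, a replicate block, paralogs summed, each library left out, and the 3 libraries that stood apart removed. Pooled ratios have exact 95% intervals, and a count of 0 allows up to 3 counts. The fit was tested on simulated data.

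The members and gene lists were chosen with earlier results of these data known. Named genes are the 10 members, ATP7B, up to 6 genes of each list per comparison by smallest adjusted p (where a list has no call, its 3 most abundant), up to 3 most-like genes per member, and paralogs and serpin neighbours. Genes named outside that rule, and list genes listed at 0, were chosen after their values were seen. Motifs were sought by script in RefSeq promoters of GRCh38.p14; the files use hg19, and promoter coordinates are in GRCh38.p14 alone. SOCS7, SH2B3 and PECAM1 were not matched. One gene of the JAK and STAT list is counted there but not reported by name here.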

Additional observations from a re-analysis of the deposited data

Results flagged for a closer look

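No member passed the test of a difference in copper effect between the lines. Among 129 tested genes of the lists around them, 13 did (10.1%, beside 4.93% of all genes tested), with adjusted p-values of 0.0298 to 0.0494 in edgeR's quasi-likelihood test, and each value here is the log2 copper effect in KO minus that in wild type cells. Of the acute phase genes, the difference was -1.19 for FGA, -1.53 for FGG and -1.67 for LRG1. FGA and FGG fell in both lines and fell further in KO. LRG1 fell in KO and did not pass the test in wild type. IL11 differed by 3.13, with a rise in both lines that was larger in KO. STAT6 differed by -0.98. Among STAT3 targets, PIM1 differed by 3.94 and BCL2L1 by -2.50. PIM1 rose in KO and fell in wild type, but with the 9 libraries its change in KO was 0.84 and did not pass (adjusted p = 0.103). IFITM3, an interferon target, differed by -1.84. The liver factors FOXA1 and ONECUT1 differed by -1.57 and -4.07. In the serpin cluster, SERPINA4 differed by -2.83 and SERPINA11 by -1.43, and the receptor gene LRP1 by -1.86. These 13 calls held in 6 to 11 of 20 alternatives each and ended without any WT untreated library, WT copper 1 or 2, KO untreated 1 or any KO copper library. With the 9 libraries ONECUT1 (-1.24, adjusted p = 0.23) and LRP1 (-0.83, adjusted p = 0.058) no longer passed, and the other 11 did, at a background of 8.78%. There the difference was much smaller for BCL2L1 (-0.70), and also smaller for LRG1 (-0.95), IFITM3 (-1.07), SERPINA4 (-1.65), PIM1 (2.45), FGG (-1.02), IL11 (2.18), FOXA1 (-1.12), SERPINA11 (-1.19) and STAT6 (-0.85), and larger for FGA (-1.46).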

How the results depend on the processing

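In single-gene results for the 7 tested members, 624 values kept their direction and side of the threshold, 32 passed it newly, 37 no longer did and 22 turned. The number of members called was 2 for copper in WT, and 4 without the filter, 1 with paralogs summed, 6 with the 9 libraries and 1 to 6 with each library left out. It was 5 for copper in KO and 3 to 4 with each left out. It was 3 for KO against WT untreated, 1 with only the 2 groups and 1 to 5 with each left out. It was 2 for KO against WT in copper, 4 with the 9 libraries and 1 to 3 with each left out. For the interaction it was 0, and 1 with library totals alone, 2 without the filter, 2 with DESeq2, 1 with the replicate block and 0 to 3 with each left out, highest without KO untreated 3 (SERPINA1, HP and SOCS1).

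Turned values were these. SOCS1 for copper in KO was 0.15 with voom and -1.31 to 4.45 with each library left out, where KO untreated without library 3 has 0 counts and the fitted value is no bound. SERPINA1 for KO against WT untreated was -0.69 with the 9 libraries. SOCS2 there was -0.01 with voom, -3.28 with the 9 libraries and -3.16 to 1.60 with each left out. For KO against WT in copper, ORM1 was -0.13 to 0.56 with each left out, and SOCS1 was -0.06 with the 9 libraries. For the interaction, HPX was -0.21 to 0.54 with each left out, ORM1 0.13 with the 9 libraries, and SOCS2 0 with library totals alone, -0.17 with DESeq2 and -1.11 to 3.70 with each left out. The cause was not tested.

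Library totals alone moved the median of all genes to -0.12 for KO with copper and 0.12 for KO against WT untreated, against 0.01 and -0.02 with TMM. The split of higher and lower calls was then 1289 and 2482 for copper in KO (1675 and 2046 with TMM), 2429 and 1071 for KO against untreated WT (1975 and 1546), and 126 and 834 for the interaction (139 and 406). Counts over all genes that moved by over 1.5 times were, for copper in WT (1648), 3044 with only the 2 groups, 4784 with the 9 libraries and 734 to 3779 with each left out. For copper in KO (3721) they were 1853 with only the 2 groups and 2372 to 6635 with each left out. For KO against WT untreated (3521) they were 1421 and 2058 to 6738. For KO against WT in copper (1525) they were 2694 with only the 2 groups, 4527 with the 9 libraries and 675 to 3561 with each left out. For the interaction (545) they were 960 with library totals, 2366 without the filter, 1831 with DESeq2, 139 with voom, 113 with the replicate block, 1050 with the 9 libraries and 13 to 5882 with each left out.

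Whether replicate numbers pair the libraries could not be decided. Same-numbered deviations from group means correlated at -0.221 to 0.610, above 0.1 in 2 of 18 pairs. Differently numbered ones correlated at -0.642 to 0.407, above 0.1 in 12 of 36. Those 2 same-numbered pairs were the highest of all: WT copper 3 with KO untreated 3 (0.610) and WT copper 1 with KO untreated 1 (0.495). Both lie in groups with libraries that stood apart, which weigh on such deviations. The replicate block called 3 members for copper in WT, 4 for copper in KO, 3 for KO against WT untreated and 2 for KO against WT in copper. HP for copper in WT (adjusted p = 0.0355) and for the interaction (adjusted p = 0.0474) passed under it, and SOCS2 for copper in KO (adjusted p = 0.0697) did not. SOCS3, with at most 5 counts in a group, was under the filter, and LBP was not detectable at this depth.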
